A study of Mus musculus with 20 samples.

Results

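At the 4-cell stage, 3 RNA libraries of mouse embryos homozygous for the deletion that the titles call Pcgf5MT2C_Mm, that is, of an MT2C_Mm repeat assigned to Pcgf5 (Homo KO), were compared with 2 libraries of wild-type embryos (WT) over all genes. These 5 libraries were taken by their titles from the 20 samples of the series, 16 of which are RNA libraries. Each library was made from a pool of 10 embryos with the SMART-Seq v4 PLUS kit, which copies polyadenylated RNA. Oocytes of superovulated females had been fertilised in vitro, and all embryos grew in KSOM medium until 48 hours after insemination. The labels mention electroporation only for the separate knockdown experiment, and all 5 libraries bear batch label 1. Embryos heterozygous for the deletion (Hetero KO, 3 libraries) of the same stage shared the estimate of the spread and is given for reference. The labels state neither the strain, nor the ends of the deletion, nor whether replicate pools came from separate fertilisations, so p-values here measure only the spread between these libraries. A pool also mixes embryos, and in such bulk RNA fewer cells of a kind cannot be told apart from less RNA per cell.

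MT2C_Mm belongs to the MT2 long terminal repeats, the promoter elements of MERVL-type endogenous retroviruses, and such repeats can start transcription of neighbouring genes when the mouse embryo first activates its own genome. Pcgf5 is 1 of the 6 PCGF proteins, each of which defines a form of Polycomb repressive complex 1 (PRC1), the enzyme that places a single ubiquitin on histone H2A. The series title links MERVL-driven Pcgf5 to the suppression of zygotic genome activation (ZGA). Around the 2-cell stage the mouse embryo briefly transcribes a characteristic gene set that includes Zscan4, Usp17l and Zfp352, clears its inherited oocyte mRNA, and then builds up ribosomes and the cell cycle machinery on the way to the morula.

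The 5 libraries held between 14329188 and 17871206 summed expected counts. As a check of the stage, the deposited TPM (abundance per transcript length, scaled within each library) of the 2-cell gene Zscan4d ran from 3.74 to 30.1 in WT and from 10.7 to 23.3 in Homo KO, against 215 to 282 in control late 2-cell embryos and 0.08 to 0.14 in control morulae of the same series. The genotypes did not overlap for Zfp352, at 0.96 to 49.5 TPM in WT and 61.5 to 95.2 in Homo KO. Nor did they for Obox3, at 11.7 to 110 TPM in WT and 127 to 189 in Homo KO. Both genes were higher still in control late 2-cell embryos (237 to 311 and 1289 to 2650 TPM). Gdf9, Bmp15, Cd9, Krt18 and Nanog overlapped between WT and Homo KO. Cdx2, a trophectoderm gene, was listed at 0 in all 5 libraries and at 1.53 in both control morulae. TPM of different libraries are scaled separately. Libraries of one genotype were about as far apart as libraries of different genotypes. The root mean square difference in log2 CPM (each count relative to the TMM-scaled total of its library) was 1.25 between the 2 WT libraries, 1.2 to 1.31 among Homo KO libraries and 1.16 to 1.51 between the genotypes. The first principal component of the 4-cell libraries took 26.4% of the variance and placed WT replicate 2 at -82.6 and Homo KO replicates 2 and 3 at 64.8 and 74.9, while WT replicate 1 (-7.20) and Homo KO replicate 1 (4.93) lay side by side near its centre.

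Pcgf5 mRNA was lower in every Homo KO library than in every WT library. It stood at 331 and 297 CPM in WT and at 193, 214 and 164 CPM in Homo KO, which is 60.7% of the WT mean. The groups did not overlap, and neither did Homo KO and Hetero KO, whose libraries held 338, 255 and 286 CPM. The log2 fold change of Homo KO against WT was -0.72 (SE 0.185), with an unadjusted p of 0.00237 and an adjusted p of 0.236 by edgeR's quasi-likelihood test over all genes, and of 0.0503 by DESeq2. Hetero KO stood at -0.10 (SE 0.186) against the same WT libraries. Leaving out each of the 5 libraries in turn gave values from -0.62 to -0.82. The files count Pcgf5 over a single transcript model, NM_029508, of 1509 bases in every library, so a shift between its isoforms cannot be read from them. RSEM's effective length for it averaged 1286 bases in WT and 1288 in Homo KO (exact permutation test, two-sided p = 0.8, smallest possible p 0.2). With 1 transcript model, that length cannot show a change between isoforms either.

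Pcgf5 lies on the forward strand of chromosome 19 at chr19:36348329-36460970 of GRCm38.p6, the assembly of mm10, and RefSeq lists 3 transcription starts for it. The 250 bases before each start are shown because they are the annotated promoters of the gene whose repeat was deleted, and the place of the repeat among them is not given in the labels. Capitals mark a GC box (GGGCGG, or CCGCCC on the other strand) or a CCAAT box (CCAAT, or ATTGG), the binding letters of common promoter factors. The windows are chr19:36348079-36348328, chr19:36378817-36379066 and chr19:36409498-36409747.

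Pcgf5 start 1: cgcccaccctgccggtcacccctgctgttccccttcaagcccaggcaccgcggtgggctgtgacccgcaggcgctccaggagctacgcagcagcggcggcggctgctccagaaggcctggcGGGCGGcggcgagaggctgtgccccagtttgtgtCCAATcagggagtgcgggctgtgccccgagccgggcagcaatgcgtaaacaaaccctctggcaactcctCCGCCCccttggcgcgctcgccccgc
Pcgf5 start 2: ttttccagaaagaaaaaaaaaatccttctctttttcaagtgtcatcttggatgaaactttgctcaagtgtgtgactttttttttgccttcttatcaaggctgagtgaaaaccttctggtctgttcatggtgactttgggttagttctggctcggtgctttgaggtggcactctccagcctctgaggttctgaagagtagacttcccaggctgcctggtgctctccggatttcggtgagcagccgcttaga
Pcgf5 start 3: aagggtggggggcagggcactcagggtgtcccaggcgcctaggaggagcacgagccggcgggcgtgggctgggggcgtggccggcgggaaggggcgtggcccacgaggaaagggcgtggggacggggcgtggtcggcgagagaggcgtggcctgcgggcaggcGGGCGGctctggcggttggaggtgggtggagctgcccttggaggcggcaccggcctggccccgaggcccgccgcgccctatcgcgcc

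The first and the third window are rich in G and C (71.6% and 78.0%) and hold 23 and 28 CpG, while the second has 45.6% G and C and 4 CpG. The median over 32851 RefSeq windows of the same length is 52.4% and 6 CpG. The first window has 2 GC boxes and 1 CCAAT box, the third has 1 GC box, and the second has neither. Of all windows, 32.7% hold a GC box, 33.8% a CCAAT box and 12.4% a TATA box (TATAAA, or TTTATA), which none of the 3 has. The deposited values rest on 1 transcript model of Pcgf5 and do not separate the 3 starts, so the use of each was not tested.

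**Figure D1:**
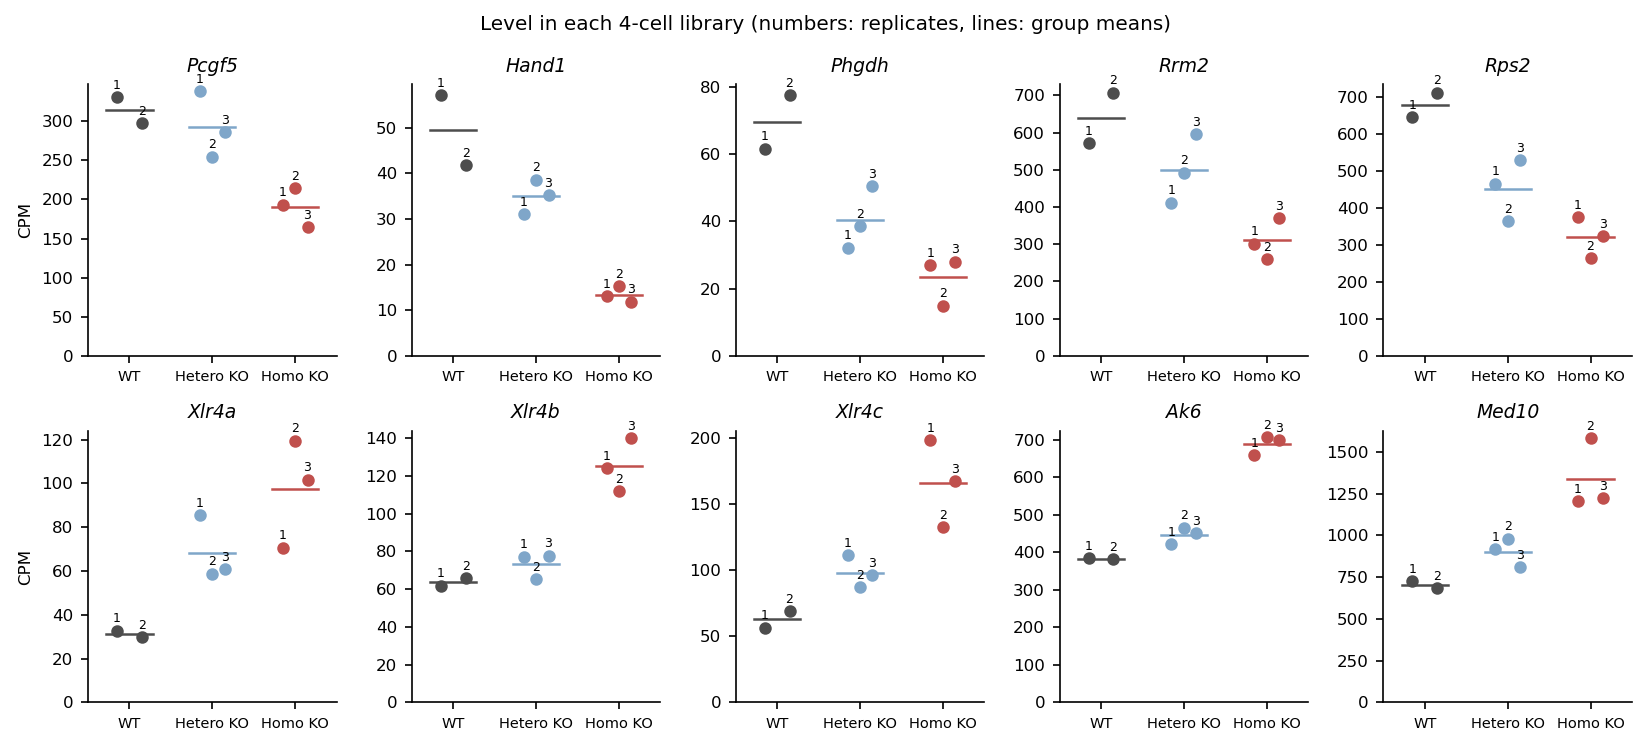
Level of 10 genes in CPM (vertical axis, linear from 0) in each 4-cell library, by genotype. Points are libraries with their replicate number and lines are group means. The 3 Homo KO points lie below both WT points for Pcgf5, Hand1, Phgdh, Rrm2 and Rps2 and above both for Xlr4a, Xlr4b, Xlr4c, Ak6 and Med10.

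Across all 13766 genes tested, edgeR called 0 genes (0.0%) higher and 0 (0.0%) lower in Homo KO at an adjusted p under 0.05, and the smallest adjusted p was 0.174. At an unadjusted p under 0.05, 921 genes (6.69%) were higher and 780 (5.67%) lower, 12.4% of all genes in both directions. DESeq2 on the same counts called 251 genes (2.04%) higher and 98 (0.798%) lower of the 12279 it tested, and limma on log2(TPM + 1) called 0. The other contrasts of the same fit gave fewer genes at an unadjusted p under 0.05. Against WT, 2.8% of genes were higher and 1.96% lower in Hetero KO, and against Hetero KO, 5.1% were higher and 3.12% lower in Homo KO. Of the 349 genes DESeq2 called, 347 had an unadjusted edgeR p under 0.05 with the same sign, and 22 had no count in either WT library. Cav1, which encodes a caveolar coat protein and was picked as an example after its values were seen, was among those 22. It stood at 0 and 0 CPM in WT, 0, 19.6 and 17.3 CPM in Homo KO, and 9.79 CPM in Hetero KO replicate 3. Hence the DESeq2 call of Cav1 (adjusted p 0.000148, against 0.502 by edgeR) rests on 2 of the 3 Homo KO libraries. Without WT replicate 1, edgeR called 30 genes higher and 0 lower. Gene-wise fold changes were balanced, with 50.9% of tested genes above 0 and 49.0% below, a median of 0.02, and 15.1% of genes higher and 15.2% lower without overlap between the groups.

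**Figure D2:**
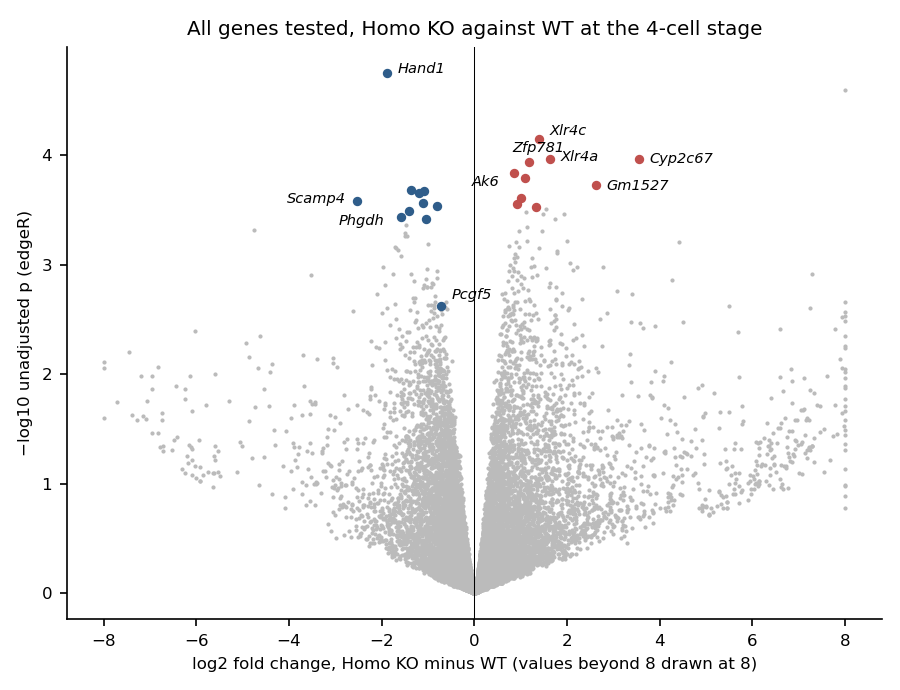
Each grey point is 1 of 13766 genes, with the log2 fold change of Homo KO against WT on the horizontal axis and the edgeR unadjusted p as -log10 on the vertical axis. Values beyond 8 are drawn at 8. Red and blue points are Pcgf5 and, among genes that average 10 CPM or more in either genotype, the 10 with the smallest p in each direction, some with their names. Hand1 is the highest of them, Pcgf5 lies well below the named group, and points far from 0 are more numerous on the right.

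By the naming rule, the 10 genes with the smallest p in each direction and at least 10 CPM in the higher group are described as values. None passed the edgeR adjustment (adjusted p from 0.174 to 0.203), although all 20 had groups that do not overlap and all 20 were called by DESeq2. Their libraries chose them, so the absence of overlap is no further support.

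Among the genes with higher values in Homo KO, the leading group was Xlr4, a family of X-linked genes related to the lymphocyte-regulated Xlr and synaptonemal complex proteins. Xlr4c was at 56.7 and 69.0 CPM in WT and at 198, 133 and 168 CPM in Homo KO, a log2 fold change of 1.40 (SE 0.230, edgeR adjusted p 0.203). Xlr4a was at 32.7 and 29.8 CPM in WT and at 70.6, 119.4 and 102 CPM in Homo KO, a log2 fold change of 1.64 (SE 0.282). Every Homo KO library thus held more of both than either WT library, and the Hetero KO libraries lay between or beside them at 87.2 to 112 CPM for Xlr4c and 58.7 to 85.4 CPM for Xlr4a. The remaining member, Xlr4b, named here after its values were seen, was at 61.8 and 65.9 CPM in WT and 124, 112 and 140 CPM in Homo KO (log2 fold change 0.97, SE 0.201). The related Xlr3a, Xlr3b, Xlr3c and Xlr5a had log2 fold changes of 0.66 (SE 0.601), -0.43 (SE 0.476), 0.62 (SE 0.333) and -0.28 (SE 0.358), none with an unadjusted p under 0.05.

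The Xlr4 genes are near copies, and their promoters are printed to show how close they are. These are the 250 bases before 1 RefSeq start of each gene, from GRCm38.p6. For Xlr4a the start used lies inside the annotated gene (chrX:73074343-73082527), so its window reaches into the gene. Capitals in Xlr4b and Xlr4c mark bases that differ from Xlr4a where the windows overlap. The windows are chrX:73082508-73082757 (reverse strand), chrX:73214083-73214332 (forward) and chrX:73243131-73243380 (reverse).

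Xlr4a: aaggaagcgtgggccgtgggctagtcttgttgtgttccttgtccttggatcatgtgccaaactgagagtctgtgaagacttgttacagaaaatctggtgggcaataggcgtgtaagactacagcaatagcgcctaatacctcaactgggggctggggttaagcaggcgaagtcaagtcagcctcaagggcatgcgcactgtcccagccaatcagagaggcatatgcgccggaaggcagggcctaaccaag
Xlr4b: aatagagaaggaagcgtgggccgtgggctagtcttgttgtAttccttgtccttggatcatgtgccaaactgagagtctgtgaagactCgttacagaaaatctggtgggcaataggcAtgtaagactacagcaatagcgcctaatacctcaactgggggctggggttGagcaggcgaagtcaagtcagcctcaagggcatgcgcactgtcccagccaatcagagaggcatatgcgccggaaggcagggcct
Xlr4c: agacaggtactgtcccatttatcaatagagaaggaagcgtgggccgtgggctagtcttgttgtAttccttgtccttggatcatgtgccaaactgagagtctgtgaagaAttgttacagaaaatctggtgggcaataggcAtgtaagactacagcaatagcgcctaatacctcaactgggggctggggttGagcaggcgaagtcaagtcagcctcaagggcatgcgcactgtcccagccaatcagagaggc

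Xlr4b differs from Xlr4a at 4 of 243 shared bases (98.4% identity) and Xlr4c at 4 of 220 (98.2%). Each window holds a CCAAT box and no GC or TATA box. Reads could be split between such copies, so the share of each Xlr4 gene is uncertain, whereas all 3 lay higher in Homo KO. Because the family is X-linked, the sex makeup of the pools was read beside it. Xist, the RNA that coats the inactive X, was at 11.7 and 64.2 CPM in WT and at 40.5, 6.11 and 5.64 CPM in Homo KO. The summed CPM of 10 Y-linked genes were 118 and 153 in WT and 106, 264 and 202 in Homo KO. Both measures overlapped between the genotypes, and the part of sex makeup in the Xlr4 values was not tested.

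The other genes with higher values came from unrelated processes. Cyp2c67, a cytochrome P450 gene, lies on chromosome 19 within 5 Mb of Pcgf5. It was at 3.19 and 0.832 CPM in WT and at 23.2, 23.6 and 24.3 CPM in Homo KO (log2 fold change 3.56, SE 0.613). The Homo KO libraries were nearly equal, and Hetero KO lay between the genotypes at 3.47 to 7.92 CPM. Ak6, an adenylate kinase of the nucleus, was at 384 and 382 CPM in WT and at 660, 708 and 699 CPM in Homo KO, and replicates differed little in both groups (log2 fold change 0.85, SE 0.151). Med10, a subunit of the Mediator complex of RNA polymerase II, was at 728 and 683 CPM in WT and at 1204, 1581 and 1222 CPM in Homo KO (log2 fold change 0.92, SE 0.177). Ube2w, a ubiquitin-conjugating enzyme, was at 150 and 133 CPM in WT and at 336, 324 and 248 CPM in Homo KO (log2 fold change 1.09, SE 0.197). Again no library of one genotype reached the range of the other. Scoc, a Golgi protein, had a log2 fold change of 1.33 (SE 0.257), and the zinc finger genes Zfp781 and Mynn had 1.18 (SE 0.205) and 1.01 (SE 0.192). Mynn was as high in Hetero KO (112 to 137 CPM) as in Homo KO (130 to 142 CPM). Gm1527, a predicted gene, completed the 10 at 2.62 (SE 0.481) and low levels of 2.20 to 22.9 CPM.

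Hand1, a transcription factor of trophoblast giant cells and the heart, had the smallest p of all genes. It was at 57.2 and 41.8 CPM in WT, 31.1, 38.6 and 35.3 CPM in Hetero KO and 13.1, 15.2 and 11.9 CPM in Homo KO. The 3 genotypes thus formed 3 separate ranges, with Homo KO at 27.1% of the WT mean. The log2 fold change was -1.88 (SE 0.265), the unadjusted p 1.78e-05 and the adjusted p 0.174 by edgeR and 2.45e-07 by DESeq2.

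The other genes with lower values act in several processes. Rrm2, the small subunit of ribonucleotide reductase that supplies deoxynucleotides for replication, was at 573 and 707 CPM in WT and at 301, 259 and 371 CPM in Homo KO (log2 fold change -1.04, SE 0.209). Phgdh, the first enzyme of serine synthesis, was at 61.7 and 77.6 CPM in WT and at 27.02, 14.99 and 28.01 CPM in Homo KO (log2 fold change -1.58, SE 0.314). Rps2, a protein of the small ribosomal subunit, was at 647 and 713 CPM in WT and at 375, 265 and 324 CPM in Homo KO (log2 fold change -1.08, SE 0.202). For these 3 genes every Homo KO library lay below both WT libraries, and the Hetero KO means lay between. Rn45s, the precursor of ribosomal RNA, was at 812 and 508 CPM in WT and at 311, 285 and 264 CPM in Homo KO (log2 fold change -1.2, SE 0.226), with Hetero KO near Homo KO at 265 to 394 CPM. It carries no regular polyadenylated tail, so its share in such libraries can vary with the preparation, and this was not tested. Gpd2, the mitochondrial glycerol-3-phosphate dehydrogenase, had a log2 fold change of -1.10 (SE 0.212), and Pdp2, a phosphatase that activates pyruvate dehydrogenase, had -1.41 (SE 0.277). Scamp4, a vesicle membrane protein, had -2.52 (SE 0.482) at 1.34 to 12.6 CPM, and Mt2, a metallothionein, had -0.80 (SE 0.156).

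Within the PCGF family, levels can be compared per transcript length. In WT the mean TPM were 753 for Pcgf1, 296 for Pcgf5, 128 for Bmi1 (PCGF4), 118.5 for Pcgf6, 4.74 for Pcgf3 and 0 for Pcgf2, and in Homo KO 543, 176, 214, 114.5, 5.43 and 0.177. Pcgf5 was therefore second to Pcgf1 in WT and lay below Bmi1 in the Homo KO means. In WT the libraries of Pcgf5 (339 and 254 TPM) did not overlap those of Bmi1 (172 and 84.1 TPM), while in Homo KO they did, with 171, 199 and 158 TPM for Pcgf5 and 178, 182 and 283 TPM for Bmi1. Pcgf1, which forms the variant complex with BCOR and KDM2B, was at 375 and 442 CPM in WT and at 340, 271 and 282 CPM in Homo KO (log2 fold change -0.46, SE 0.189, edgeR adjusted p 0.368). Bmi1, of canonical PRC1, was at 439 and 259 CPM in WT and at 523, 512 and 768 CPM in Homo KO (log2 fold change 0.78, SE 0.344, edgeR adjusted p 0.394). The genotypes did not overlap for either gene, and Pcgf6 overlapped at 173 and 196 against 170, 192 and 178 CPM (log2 fold change -0.04).

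Wider lists of Polycomb genes gave no common direction. Of 39 tested PRC1 subunits and partners, 18 had positive and 21 negative fold changes, and 2 were higher and 3 lower at an unadjusted p under 0.05 (5.13% and 7.69%, beside 6.69% and 5.67% of all genes). These 39 include the 5 tested PCGF genes described above, which account for 1 of the higher and 2 of the lower genes. Skp1a, a partner of the Pcgf1 complex, was at 1128 and 1148 CPM in WT and 1588, 2316 and 1435 CPM in Homo KO (log2 fold change 0.64, SE 0.206). Tfdp1, a partner of E2F6, was at 115 and 180 CPM in WT and 87.9, 86.0 and 86.2 CPM in Homo KO (log2 fold change -0.76, SE 0.212). PRC2, the complex that methylates lysine 27 of histone H3, had 4 positive and 10 negative values among 14 tested genes, with a median of -0.11. The mean levels (log2 CPM) were 5.60 and 5.62 in WT and 5.20, 5.23 and 5.30 in Homo KO. The summed levels overlapped, at 2476 to 3452 CPM in WT and 2670 to 3060 CPM in Homo KO. PRC2 had 0 genes higher and 2 lower at an unadjusted p under 0.05 (0.0% and 14.3%). Its lowest p values were those of Lcor, which encodes an accessory subunit and had a log2 fold change of -1.70 (SE 0.434), and Ezh1, an alternative catalytic subunit, with -0.71 (SE 0.309). Among 20 enzymes and partners that remove ubiquitin from H2A, 1 was higher and 0 lower at an unadjusted p under 0.05 (5.0% and 0.0%). That gene was Ogt, the sugar transferase bound to BAP1, at 87.5 and 73.5 CPM in WT and 155, 117 and 137 CPM in Homo KO (log2 fold change 0.76, SE 0.200). Developmental genes that Polycomb represses in stem cells were mostly silent, and 49 of 127 were tested. Of these, 32 had positive values with a median of 0.27, but 21 of the 127 stood at 0 in all 5 libraries and the 4 tested members above 10 CPM had a median of -0.13. Only 2 were higher and 1 lower at an unadjusted p under 0.05 (4.08% and 2.04%), and the lower one, the endoderm gene Gata6, was at 7.26 and 19.2 CPM in WT and 4.50, 7.31 and 1.99 CPM in Homo KO, where the ranges overlap.

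Most transient 2-cell genes had higher values in Homo KO, and the distance to WT differed between the WT libraries. Their mean level over 47 tested members was 5.04 and 2.66 log2 CPM in WT, 4.53, 3.76 and 3.62 in the Hetero KO libraries and 5.08, 5.19 and 5.24 in Homo KO. The 3 Homo KO libraries were close together, and WT replicate 1 lay just below the lowest of them. The summed level of the list, which the abundant members set, was 6382 and 5707 CPM in WT and 8729, 7749 and 8588 CPM in Homo KO, also without overlap. Of the 47 genes 39 had positive fold changes (83.0%, beside 50.9% of all genes) with a median of 1.02, yet only 4 were higher and 1 lower at an unadjusted p under 0.05 (8.51% and 2.13%). The median was 0.28 without WT replicate 2 and 2.97 without WT replicate 1, and Hetero KO had a median of -0.31 against the same WT libraries. Zfp352 was at 76.5 and 1.78 CPM in WT and at 170, 105 and 136 CPM in Homo KO (log2 fold change 1.80, SE 1.25, unadjusted p 0.197). Gm5662, a near copy within a 2-cell gene cluster, was at 748 and 47.2 CPM in WT and at 838, 1090 and 1102 CPM in Homo KO, while Hetero KO held 287, 104 and 69.7 CPM. Zscan4d was at 40.5 and 6.0 CPM in WT and at 16.5, 32.2 and 33.3 CPM in Homo KO, so that its ranges overlap (log2 fold change 0.24, SE 0.671). The members with small p were others. Spz1, a basic helix-loop-helix factor, was at 19.1 and 17.3 CPM in WT and at 37.7, 36.0 and 33.6 CPM in Homo KO (log2 fold change 0.98, SE 0.267, edgeR adjusted p 0.243). Gm13119, a predicted gene of the Pramef type, was at 36.6 and 32.5 CPM in WT and at 6.92, 8.57 and 16.7 CPM in Homo KO, 1 of 8 members with a negative value (log2 fold change -1.69, SE 0.365, edgeR adjusted p 0.221). Many of these genes are near-identical copies, among them Gm13040 and Gm13057, which have the same value in every library, so their members do not count as separate measurements.

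**Figure D3:**
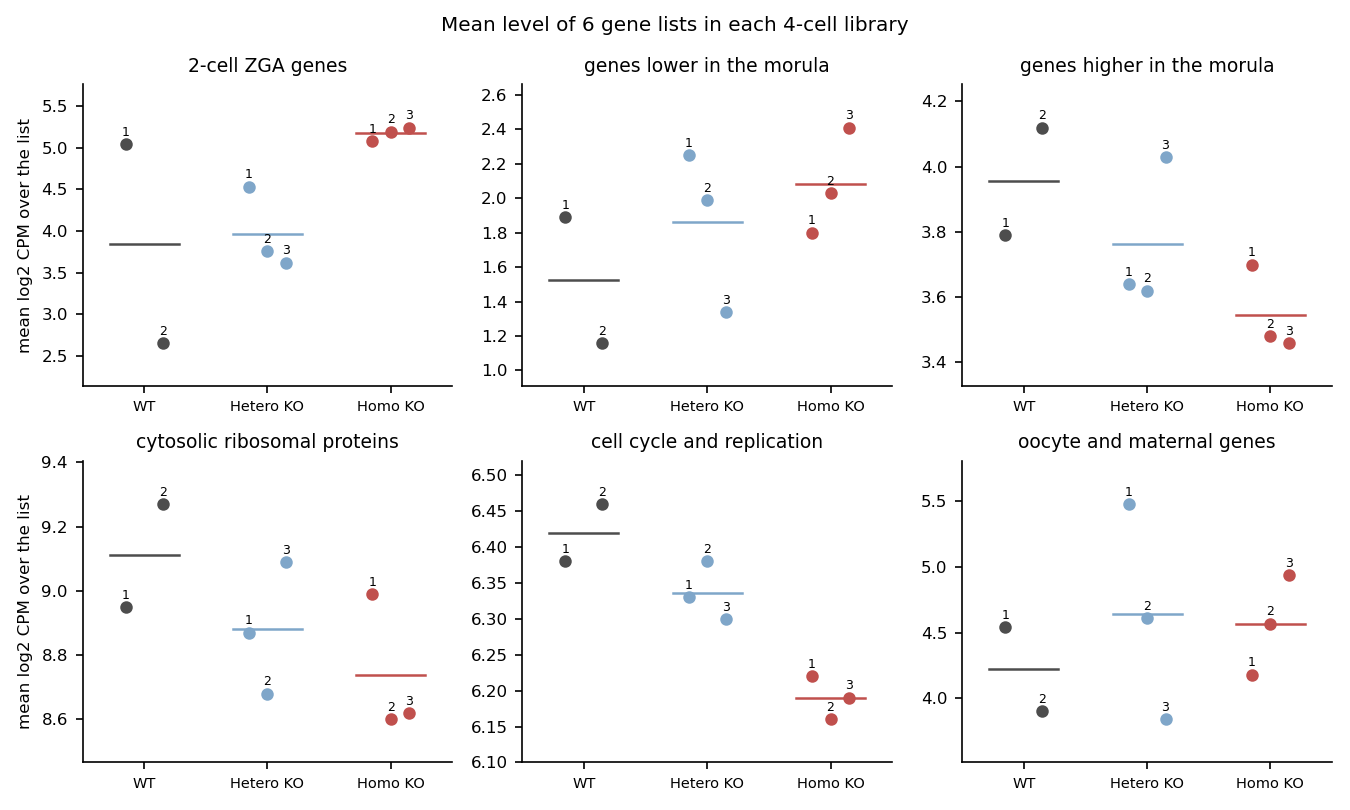
Mean log2 CPM (vertical axis, not starting at 0) over the tested members of 6 gene lists in each 4-cell library, with replicate numbers and group means as lines. In the 2-cell ZGA panel WT replicate 1 lies beside the Homo KO libraries and WT replicate 2 far below, and only the panels of cell cycle genes, 2-cell genes and genes higher in the morula have Homo KO and WT ranges that do not overlap.

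The Obox homeobox genes, which are inherited as oocyte mRNA and also transcribed at ZGA, behaved as 2 kinds. Obox3 was at 116 and 14.7 CPM in WT and at 154, 218 and 192 CPM in Homo KO (log2 fold change 1.53, SE 0.739, unadjusted p 0.0753). Obox2 was at 34.1 and 13.6 CPM in WT and at 28.5, 44.7 and 734 CPM in Homo KO, with 484 CPM in Hetero KO replicate 1. The value of Obox2 (log2 fold change 3.5, SE 2.17) therefore comes from Homo KO replicate 3, and likewise Obox1, Obox5 and Obox7 were highest in that library and in Hetero KO replicate 1. Obox6, the most abundant, was at 2047 and 2599 CPM in WT and at 2563, 2431 and 1843 CPM in Homo KO, with overlapping ranges. The median of the 6 tested members was 2.21, and 0.55 without Homo KO replicate 3. Genes of the oocyte and maternal store showed the same 2 libraries on top, with mean levels of 4.54 and 3.90 log2 CPM in WT, 5.48, 4.61 and 3.84 in the Hetero KO libraries and 4.18, 4.57 and 4.94 in Homo KO. Of 57 tested, 37 had positive values, and 5 were higher and 1 lower at an unadjusted p under 0.05 (8.77% and 1.75%). The median was 0.28, and -0.06 without Homo KO replicate 3. Nlrp4e, an oocyte NLR gene, was at 8.92 and 11.2 CPM in WT and 41.9, 40.4 and 34.8 CPM in Homo KO, without overlap (log2 fold change 1.95, SE 0.671, edgeR adjusted p 0.308), although Hetero KO ranged from 7.99 to 53 CPM. Npm2, the oocyte nucleoplasmin that decondenses sperm chromatin, had 0.76 (SE 0.259), and Khdc3, which belongs to the subcortical complex of maternal proteins, had -1.70 (SE 0.544). Factors that clear maternal mRNA, such as the CCR4-NOT deadenylase, had a median of 0.29 over 32 tested genes, of which 3 were higher and 2 lower at an unadjusted p under 0.05 (9.38% and 6.25%, beside 6.69% and 5.67% of all genes).

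A wider view of developmental timing came from genes that differ between control late 2-cell embryos and control morulae, which are not part of the 4-cell comparison. With thresholds of 0.05 on edgeR's adjusted p and 2 on the size of the log2 fold change, there were 3523 genes lower in the morula, of which 2774 were tested at the 4-cell stage, and 2300 genes higher in the morula, of which 2074 were tested. Among the genes lower in the morula, 73.5% had positive values in Homo KO against WT, with a median of 0.55, and 323 were higher and 28 lower at an unadjusted p under 0.05 (11.6% and 1.01%, beside 6.69% and 5.67% of all genes). Among the genes higher in the morula, 75.1% had negative values, with a median of -0.37, and 32 were higher and 307 lower (1.54% and 14.8%). Most genes whose RNA declines over this interval thus had higher values in Homo KO, and most whose RNA accumulates had lower values. The mean level of the declining genes was 1.89 and 1.16 log2 CPM in WT and 1.80, 2.03 and 2.41 in Homo KO, so that WT replicate 1 lay within the Homo KO range. That of the accumulating genes was 3.79 and 4.12 in WT and 3.70, 3.48 and 3.46 in Homo KO, with Homo KO below both. Summed levels gave the reverse, with no overlap for the declining genes (61421 and 46014 CPM in WT against 69138, 77170 and 94129 CPM in Homo KO) and overlap for the accumulating ones (197629 and 264543 against 216724, 183056 and 182199 CPM). The sizes depend on single libraries. Without WT replicate 2 the medians were 0.36 and -0.18, without WT replicate 1 they were 1.10 and -0.50, and without Homo KO replicate 3 they were 0.34 and -0.34. Hetero KO, against the same WT libraries, had medians of 0.30 and -0.18.

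**Figure D4:**
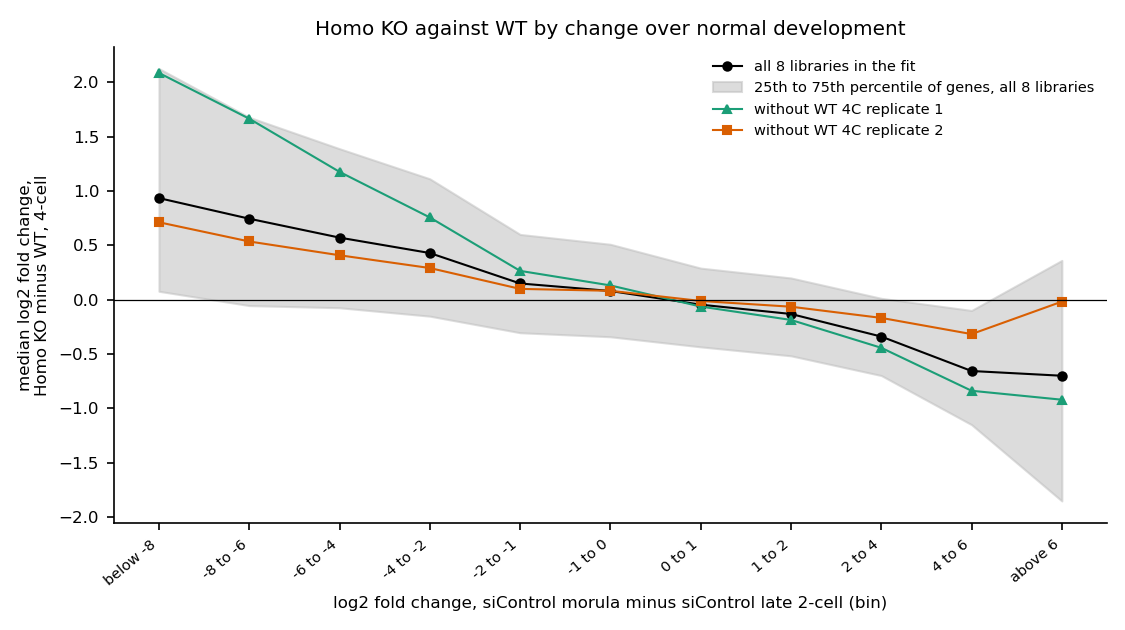
Tested genes were placed in 11 bins by their log2 fold change between control late 2-cell embryos and control morulae (horizontal axis), and the median log2 fold change of Homo KO against WT is plotted per bin (vertical axis) with all libraries and without each WT library, with the 25th to 75th percentile of genes as a grey band. With all libraries the medians run from 0.93 in genes that decline most to -0.70 in genes that accumulate most. Without WT replicate 2 they run from 0.71 to -0.02, with -0.32 in the bin from 4 to 6.

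Most genes of cytosolic ribosomal proteins had negative values, without an edgeR call for any. DESeq2 called 1 of them lower, Rps2. Of 81 cytosolic ribosomal protein genes 75 had negative fold changes (92.6%, beside 49.0% of all genes), with a median of -0.40, and 26 were lower and 0 higher at an unadjusted p under 0.05 (32.1% and 0.0%). Hetero KO, against the same WT libraries, had 5 positive values of 81 and a median of -0.24. Their mean level was 8.95 and 9.27 log2 CPM in WT and 8.99, 8.60 and 8.62 in Homo KO, so Homo KO replicate 1 lay at the level of WT replicate 1 and the groups overlap. Leaving out 1 library moved the median between -0.21 (without WT replicate 2) and -0.56 (without WT replicate 1). Rpsa, also known as the laminin receptor, was at 367 and 403 CPM in WT and at 268, 224 and 212 CPM in Homo KO (log2 fold change -0.72, SE 0.186, edgeR adjusted p 0.236). Rpl3, which lies near the peptidyl transferase centre, was at 543 and 916 CPM in WT and at 460, 279 and 394 CPM in Homo KO (log2 fold change -0.95, SE 0.291). For ribosome biogenesis, 36 of 53 tested genes had negative values with a median of -0.13, and 4 were higher and 8 lower at an unadjusted p under 0.05 (7.55% and 15.1%, beside 6.69% and 5.67% of all genes). Fbl, the methyltransferase fibrillarin, was at 87.1 and 74.9 CPM in WT and at 51.4, 41.1 and 44.3 CPM in Homo KO, and equally low in Hetero KO at 53.1, 34.2 and 51.3 CPM (log2 fold change of Homo KO against WT -0.83, SE 0.246). Nop16, a nucleolar protein, went the other way with 0.57 (SE 0.197).

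Genes of the cell cycle and DNA replication mostly had lower values in Homo KO, though not in their summed level. Of 59 tested, 40 had negative values with a median of -0.26, and 12 were lower and 3 higher at an unadjusted p under 0.05 (20.3% and 5.08%). The mean level was 6.38 and 6.46 log2 CPM in WT, 6.33, 6.38 and 6.30 in the Hetero KO libraries and 6.22, 6.16 and 6.19 in Homo KO, and on this scale no Homo KO library reached WT or Hetero KO. Of the 30 gene lists, 8 had mean levels without overlap between WT and Homo KO. Ribosome biogenesis, heat shock chaperones, sperm markers and blood markers were among them. The summed level, which the abundant members set, overlapped at 13835 and 15924 CPM in WT and 15360, 14515 and 15279 CPM in Homo KO. Leaving out 1 library kept the median between -0.21 and -0.32. Cdc25a, the phosphatase that activates CDK2, was at 31.6 and 44.7 CPM in WT and at 11.2, 12.7 and 16.9 CPM in Homo KO (log2 fold change -1.49, SE 0.309, edgeR adjusted p 0.220). Tk1, thymidine kinase, was at 59.0 and 77.1 CPM in WT and at 32.7, 34.1 and 29.0 CPM in Homo KO (log2 fold change -1.09, SE 0.263). Cdt1, which licenses replication origins, was at 59.2 and 56.7 CPM in WT and at 39.1, 26.4 and 29.6 CPM in Homo KO (log2 fold change -0.87, SE 0.247). With Rrm2 and Wee1, the kinase that restrains CDK1 (log2 fold change -1.33, SE 0.332), Cdc25a, Tk1 and Cdt1 were the 5 members that DESeq2 called lower. Pcna, the replication clamp, went the other way at 255 and 233 CPM in WT and 324, 343 and 288 CPM in Homo KO (log2 fold change 0.38, SE 0.164), as did the checkpoint gene Mad2l1 (0.72, SE 0.239).

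Genes of pluripotency and trophectoderm had few members at an unadjusted p under 0.05, and those few were lower in Homo KO. Of 31 tested pluripotency genes 18 had negative values with a median of -0.21, and 0 were higher and 4 lower at an unadjusted p under 0.05 (0.0% and 12.9%, beside 6.69% and 5.67% of all genes). Klf17, an early Krüppel-like factor, was at 267 and 308 CPM in WT and at 175, 125 and 199 CPM in Homo KO (log2 fold change -0.79, SE 0.272). Klf2 was at 37.1 and 51.0 CPM in WT and at 17.5, 13.7 and 32.8 CPM in Homo KO (log2 fold change -1.05, SE 0.408), and Esrrb, at 1.68 to 7.54 CPM, had -1.51 (SE 0.516). These 3 genes were lower in each Homo KO library than in either WT library. Of the 31 tested, 6 were lower and 2 higher without overlap (19.4% and 6.45%, beside 15.2% and 15.1% of all genes). Among 38 trophectoderm genes the median was -0.04, with 18 positive and 20 negative values. At an unadjusted p under 0.05, 0 were higher and 3 lower (0.0% and 7.89%, beside 6.69% and 5.67% of all genes). Beside Hand1 they included Tead4, the TEAD factor that acts with YAP1, at 32.6 and 37.5 CPM in WT and 20.8, 9.32 and 17.6 CPM in Homo KO (log2 fold change -1.14, SE 0.371). Imprinted genes had a median of 0.02 over 47 tested, with 1 higher and 4 lower (2.13% and 8.51%), among them Usp29 at 140 and 190 CPM in WT and 53.5, 81.7 and 146 CPM in Homo KO, where the ranges overlap (log2 fold change -0.82, SE 0.335). Genes that silence retroelements and methylate lysine 9 of histone H3 had a median of -0.02 over 46 tested, with 3 higher and 3 lower (6.52% each). Mphosph8, the reader subunit of the HUSH complex, was at 78.9 and 81.8 CPM in WT and at 134, 184 and 159 CPM in Homo KO (log2 fold change 0.99, SE 0.256), and Tet1, an eraser of DNA methylation, at 146 and 154 against 106, 86.9 and 87.6 CPM (log2 fold change -0.68, SE 0.195).

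**Figure D5:**
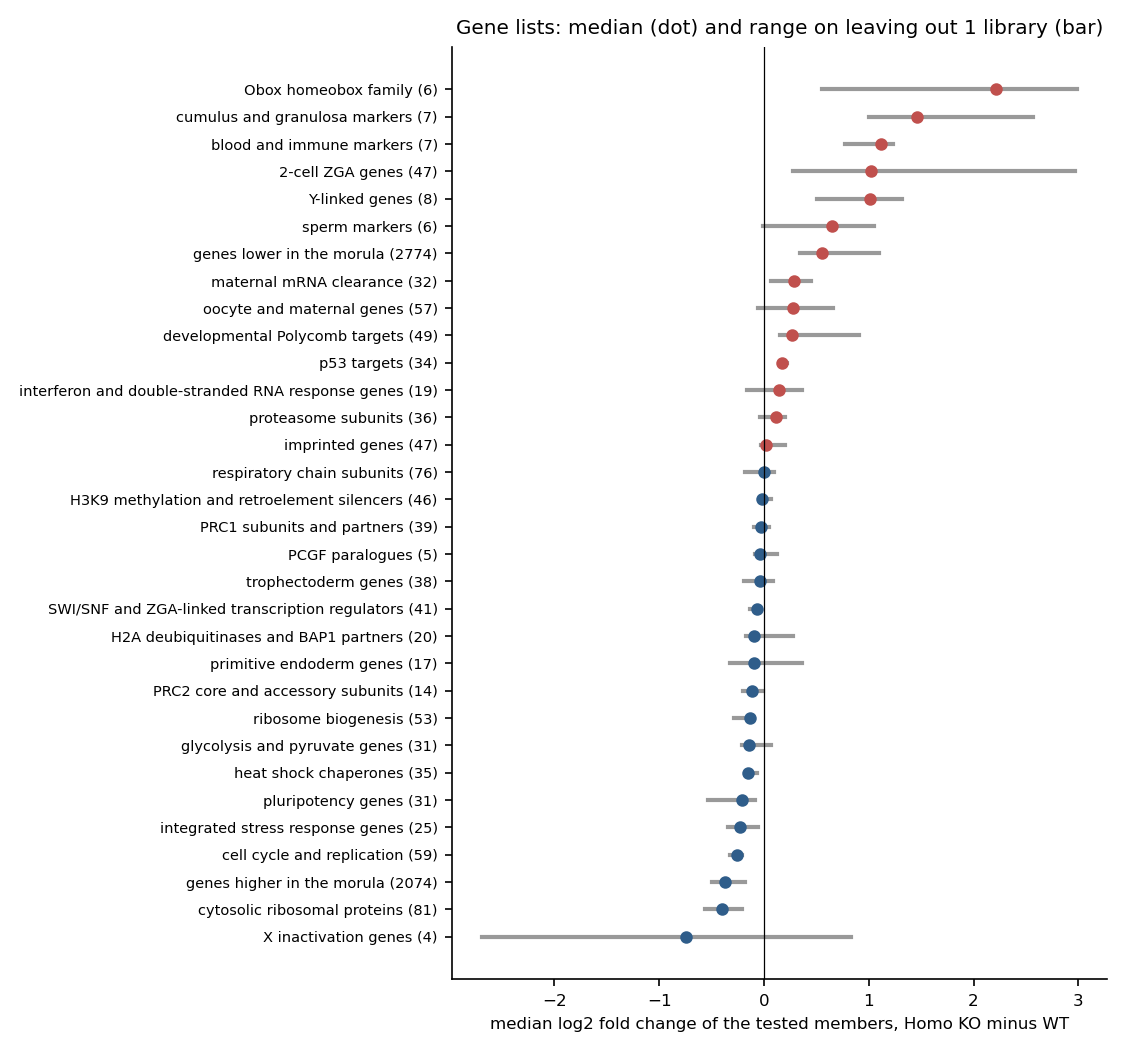
Median log2 fold change of Homo KO against WT (horizontal axis) over the tested members of each gene list, whose number stands in brackets, with red dots above 0 and blue dots below. The grey bar spans the medians on leaving out each of the 5 libraries in turn. The bars of ribosomal proteins (-0.56 to -0.21) and of cell cycle genes stay below 0, that of the 2-cell genes (0.28 to 2.97) above it, and that of oocyte and maternal genes crosses 0.

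Housekeeping and stress lists were mixed. Respiratory chain subunits had 38 positive and 38 negative values and a median of 0.00, proteasome subunits 23 positive of 36 with a median of 0.11, and targets of p53 23 positive of 34 with a median of 0.17. Of 35 heat shock chaperones 4 were higher and 3 lower at an unadjusted p under 0.05 (11.4% and 8.57%, beside 6.69% and 5.67% of all genes). The abundant Hspa8, a constitutive HSP70, was at 2749 and 3853 CPM in WT and 2309, 1222 and 1465 CPM in Homo KO (log2 fold change -0.99, SE 0.322), whereas Hspb1, a small chaperone, was at 28 and 18.7 against 44.6, 60.1 and 40.3 CPM (log2 fold change 1.05, SE 0.343). Of 25 genes of the integrated stress response 3 were higher and 4 lower (12.0% and 16.0%), the latter including the serine synthesis genes Phgdh and Psat1 (-0.52, SE 0.196). Interferon and double-stranded RNA response genes, 19 of them tested, had 0 higher and 0 lower at an unadjusted p under 0.05, with a median of 0.14.

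Markers of cells that could accompany embryos were low and somewhat higher in Homo KO. Summed over the list, 21 cumulus and granulosa markers came to 24.5 and 18.4 CPM in WT and 24.5, 33.3 and 42.8 CPM in Homo KO, with 5 of them (Amh, Inhba, Has2, Fshr and Ptgs2) at 0 in all 5 libraries. The 19 blood and immune markers came to 72.8 and 27.4 CPM in WT and 89.3, 104 and 108 CPM in Homo KO, mostly from the haemoglobin gene Hba-a2 (62.3 to 84.4 CPM in Homo KO), with 7 at 0, including Ptprc, S100a8 and the 3 Hbb genes. The 15 sperm markers came to 37.1 and 36.5 CPM in WT and 48.0, 49.1 and 72.9 CPM in Homo KO, with 6 at 0, including Acr, Tnp2 and Akap4. The part of such cells in the gene values was not tested.

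Genes around Pcgf5 were read because the extent of the deletion is not given. Within 1 Mb, 12 genes of the 16 in the files were tested, of which 2 were higher and 2 lower at an unadjusted p under 0.05 (16.7% each, beside 6.69% and 5.67% of all genes). Of the 12, 5 had positive values, with a median of -0.25. Hhex, a homeobox gene near the edge of that window, was at 13.2 and 12.2 CPM in WT and 19.8, 26.7 and 24.2 CPM in Homo KO (log2 fold change 0.89, SE 0.313). March5, a mitochondrial ubiquitin ligase, was at 226 and 195 CPM in WT and 180, 164 and 169 CPM in Homo KO (log2 fold change -0.30, SE 0.183), and Kif11, a mitotic kinesin, had 0.01 (SE 0.186). Within 1 Mb there was no common direction. Within 2 Mb, 4 of 24 tested genes were higher and 2 lower at the same threshold (16.7% and 8.33%). Within 5 Mb, 8 of 49 were higher and 2 lower (16.3% and 4.08%), and 31 had positive values. The 8 include Cyp2c67, described above. Whether these values relate to the deletion was not tested. Over all of chromosome 19, 41 of 454 tested genes (9.03%) were higher and 26 (5.73%) lower, and over the X chromosome 50 of 582 (8.59%) and 26 (4.47%). Chromosomes ranged from 4.17% to 9.76% for higher and from 3.22% to 7.29% for lower values.

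The knockdown of Pcgf5 with small interfering RNA in the same series shares no library with the 4-cell comparison, so its values were set beside those of the deletion. In the knockdown the log2 fold change of Pcgf5 was -2.96 at the late 2-cell stage and -2.53 at the morula. The sign matched that of Homo KO against WT for 47.0% of the 13616 genes tested in both at the late 2-cell stage and for 42.7% at the morula. Among the 1680 of them with an unadjusted p under 0.05 in Homo KO these shares were 44.8% and 32.3%, and among 345 genes called there by DESeq2 they were 47.5% and 27.5%. These shares were not tested. Of the 20 leading genes 10 had the same sign at the late 2-cell stage and 4 at the morula. Hand1, at -1.88 in Homo KO, had knockdown values of 0.08 (SE 0.354) and 0.93 (SE 0.350). Xlr4a, at 1.64, had -0.84 (SE 0.398) and -0.72 (SE 0.403). Neither gene had an edgeR adjusted p under 0.05 in the knockdown at either stage. Cdc25a, at -1.49 in Homo KO, had knockdown values of 0.96 and 0.42. The stages and the way of lowering Pcgf5 differ between the experiments, which cannot be told apart here.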

How the data were processed

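RNA was measured in 8 libraries of 4-cell mouse embryos (2 WT, 3 Hetero KO, 3 Homo KO), grouped by their titles. Libraries held 14310634 to 17871206 summed counts. Per the file headers, each deposited file lists 24411 genes with RSEM's expected counts, which are unscaled estimates of reads per gene. Lengths, effective lengths and the deposited TPM, scaled by RSEM to a common total, come from the same files. The submitters' processing notes name STAR 2.7.10, RSEM 1.3.3, Bowtie2 2.4.5, deepTools and mm10. Read filters and strand settings are not given in the sources used here.

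Expected counts were rounded. edgeR's filterByExpr (minimum count 10) selected the genes, which were scaled by TMM and fitted over the 8 libraries with 1 coefficient per genotype. Homo KO was tested against WT by the robust quasi-likelihood F test of edgeR 4.0.16, two-sided, in R 4.3.3, with Benjamini-Hochberg adjustment over 13766 genes and a threshold of 0.05. The procedure was tested on simulated data. Reads carry no molecular identifiers. CPM rest on TMM-scaled library sizes. A prior count of 2 was added for mean log2 CPM. The 8 knockdown libraries were fitted apart.

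The members, the comparison, the 30 gene lists (1113 genes, 1092 matched to the files, 19 by older symbols), the naming rule and the tests were chosen with earlier results of these data known. Lists are described by counts and medians, without a test of the list. The naming rule took Pcgf5, the largest differences among called genes (without predicted genes, pseudogenes and processed copies), or the 10 smallest p per direction where fewer than 5 were called, the 4 members with the smallest p per list, the PCGF genes and genes within 1 Mb of Pcgf5. Positions and promoter windows come from RefSeq on GRCm38.p6, to which 24263 of the files' genes matched. Alternatives were DESeq2 size factors, no filter, the DESeq2 1.42.0 Wald test, limma 3.58.1 with trend on log2(TPM + 1), only WT and Homo KO libraries, a block for the replicate number, omission of each library in turn, a log2 fold change beyond 1 for the developmental lists, effective length and a 2 Mb window. A restriction to genes of at least 10 CPM was added after seeing the data. Libraries against H2AK119ub1 were not analysed here, and the values of a few genes that the rule names are not reported here.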

Additional observations from a re-analysis of the deposited data

How the results depend on the processing

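At an adjusted p under 0.05, 0 genes were called by edgeR with DESeq2 size factors, by limma on log2(TPM + 1), and by edgeR with only WT and Homo KO libraries and with the replicate block, but 59 genes with no filter on low counts (38 higher, 21 lower, all 59 among the genes of the filtered fit) and 349 with the DESeq2 Wald test. On leaving out 1 library the count of called genes ran from 0 to 30, and that of genes at an unadjusted p under 0.05 from 1120 (without WT replicate 2) to 1922, against 1701. The median of the 2-cell genes ran from 0.28 to 2.97, that of cell cycle genes from -0.32 to -0.21, that of genes lower in the morula from 0.34 to 1.10 and that of genes higher in the morula from -0.50 to -0.18. The deviations of same-numbered replicates from their group means correlated at -0.10 (replicate 1) and -0.06 (replicate 2). The deviations of the 2 WT libraries mirror each other by construction, so these values cannot decide whether replicates were paired. With the replicate number as a block the count at an unadjusted p under 0.05 was 1571, Pcgf5 stood at -0.66 and the median of cell cycle genes at -0.21, and no other call changed. Single genes named by the rule that turned sign were near 0 or uneven between libraries. On leaving out 1 library, Xist (-1.12) ran from -2.69 to 0.55, Tsix (-1.33) from -2.68 to 1.58, Ftx (-0.35) from -8.43 to 1.11, Oasl2 (-3.04) from -4.72 to 0.026 and Pcgf6 (-0.04) from -0.15 to 0.0284, each highest without WT replicate 2. Ftx was at 0.23 without Homo KO replicate 2 or 3, Pcgf6 at 0.00947 with the block, and Fgfbp3 (-0.22) ran from -1.18 to 0.24, with 0.20 without WT replicate 1. Kif11 (0.01) was at -0.00355 with limma and -0.0436 with the block, and ran from -0.0903 (without WT replicate 1) to 0.0881, with -0.0901 without Homo KO replicate 1. None of the 20 leading genes turned sign in 220 alternative values. The cause of these shifts was not tested. With 2 WT libraries, differences within the spread between libraries were not detectable. When 1 WT library is left out, the lone WT library is assumed to vary like the other groups.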
